A study of Homo sapiens with 4 samples.

Results

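The genes described here are 10 mediators of inflammation: the neutrophil chemokine genes CXCL1, CXCL2, CXCL3, CXCL5 and CXCL8, the T cell and dendritic cell chemokine gene CCL20, the cytokine genes IL1A, IL1B and IL6, and PTGS2, which encodes the inducible cyclooxygenase COX-2. They were taken by gene name from a table of 58174 genes, and all 10 were found. RNA sequencing had been done 48 h after transfection of an siRNA in established human lung cancer cell lines. The groups were HCC827 cells with an siRNA against CDH3 (siCDH3), HCC827 cells with a control siRNA (siCTR), H1299 cells with siCDH3 and H1299 cells with siCTR, with 1 library in each. HCC827 grew out of a lung adenocarcinoma and carries an activating deletion in EGFR. H1299 came from a lymph node metastasis of a large cell lung carcinoma and makes no p53 protein. CDH3 encodes P-cadherin, a cell adhesion molecule of epithelial junctions. Silencing was transient, and siRNA sequences were not used here. Effects of lower CDH3 and other effects of the siRNA cannot be told apart in these libraries. By symbol and Ensembl identifier the genes are CXCL1 (ENSG00000163739), CXCL2 (ENSG00000081041), CXCL3 (ENSG00000163734), CXCL5 (ENSG00000163735), CXCL8 (ENSG00000169429), CCL20 (ENSG00000115009), IL1A (ENSG00000115008), IL1B (ENSG00000125538), IL6 (ENSG00000136244) and PTGS2 (ENSG00000073756).

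These genes share a common logic. Signals such as interleukin-1, tumor necrosis factor or bacterial products activate the transcription factor NF-kB, which binds short kappa B sites in the promoters of the chemokine and cytokine genes. The resulting mRNAs carry AU-rich elements in their 3' untranslated regions and are usually short-lived. CXCL1, CXCL2, CXCL3, CXCL5 and CXCL8 act on CXCR2 of neutrophils, and CXCL8 also on CXCR1. CCL20 acts on CCR6, and COX-2 makes the precursor of prostaglandin E2. Lung carcinoma cells can make all of these factors themselves.

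The promoters show what part of the family has in common. RefSeq promoter windows (GRCh38.p14), each with 250 bases before and 50 after the start site, were matched by symbol for 10 of 10 genes, with a pair of windows for IL1A. The stretches below hold the last 110 bases before the start site. They are shown for the 5 CXC chemokine genes, which share a site there, and for IL6 and PTGS2, which stood at the ends of the HCC827 comparison. Capitals mark matches to a kappa B motif, searched as GGNNTTTCC, and to TATAAA. All motifs were searched on both strands, and the matches in capitals are on the sense strand. The stretches lie at chr4:73869283-73869392 (plus strand), chr4:74099196-74099305 (minus), chr4:74038690-74038799 (minus), chr4:73998678-73998787 (minus), chr4:73740459-73740568 (plus), chr7:22727090-22727199 (plus) and chr1:186680424-186680533 (minus).
CXCL1: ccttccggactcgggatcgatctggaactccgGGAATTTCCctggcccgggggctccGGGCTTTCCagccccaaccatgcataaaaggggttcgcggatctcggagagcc
CXCL2: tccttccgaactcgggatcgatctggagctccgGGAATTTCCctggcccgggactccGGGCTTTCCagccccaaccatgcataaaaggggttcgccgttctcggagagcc
CXCL3: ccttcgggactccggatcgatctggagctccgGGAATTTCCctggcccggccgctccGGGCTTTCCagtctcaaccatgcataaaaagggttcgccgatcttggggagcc
CXCL5: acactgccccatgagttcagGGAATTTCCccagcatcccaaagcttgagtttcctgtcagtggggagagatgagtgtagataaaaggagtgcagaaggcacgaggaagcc
CXCL8: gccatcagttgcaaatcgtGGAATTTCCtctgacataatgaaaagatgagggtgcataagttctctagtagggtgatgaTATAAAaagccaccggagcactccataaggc
IL6: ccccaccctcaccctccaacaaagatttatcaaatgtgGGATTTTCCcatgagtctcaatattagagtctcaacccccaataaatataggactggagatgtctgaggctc
PTGS2: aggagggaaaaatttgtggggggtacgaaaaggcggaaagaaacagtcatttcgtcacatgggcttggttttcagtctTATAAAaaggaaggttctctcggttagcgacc

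A kappa B match was present in 7 of the 10 genes, CXCL1, CXCL2, CXCL3, CXCL5, CXCL8, IL6 and CCL20. Of all 35116 promoter windows 6.26% held one, a share over windows and not over genes. The 9-base form GGAATTTCC stood in all 5 CXC genes, starting 78 bases before the start site in CXCL1 and CXCL3, 77 in CXCL2, 90 in CXCL5 and 91 in CXCL8. CXCL1, CXCL2 and CXCL3 carried a further match, GGGCTTTCC, starting 53 bases before the start site. The windows of CXCL1, CXCL2 and CXCL3 were 69.8% to 82.5% identical to one another, so their matches are not independent instances. IL6 had the form GGATTTTCC at 72 bases, and the match in CCL20 lay on the opposite strand. IL1A, IL1B and PTGS2 had no match in these windows. An AP-1 motif, searched as TGANTCA, was found in CXCL8 and IL1A, where 7.71% of all windows held one. A C/EBP motif, searched as TTGCNNAA, was found in CXCL2, IL1B, IL6 and PTGS2 and in 10.5% of windows, and TATAAA was found in CXCL8, IL1A, CCL20 and PTGS2 and in 11.5% of windows. No match of one of these motifs overlapped a match of another in the 10 genes. A match describes letters only and does not show that a factor binds there.

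**Figure D1:**
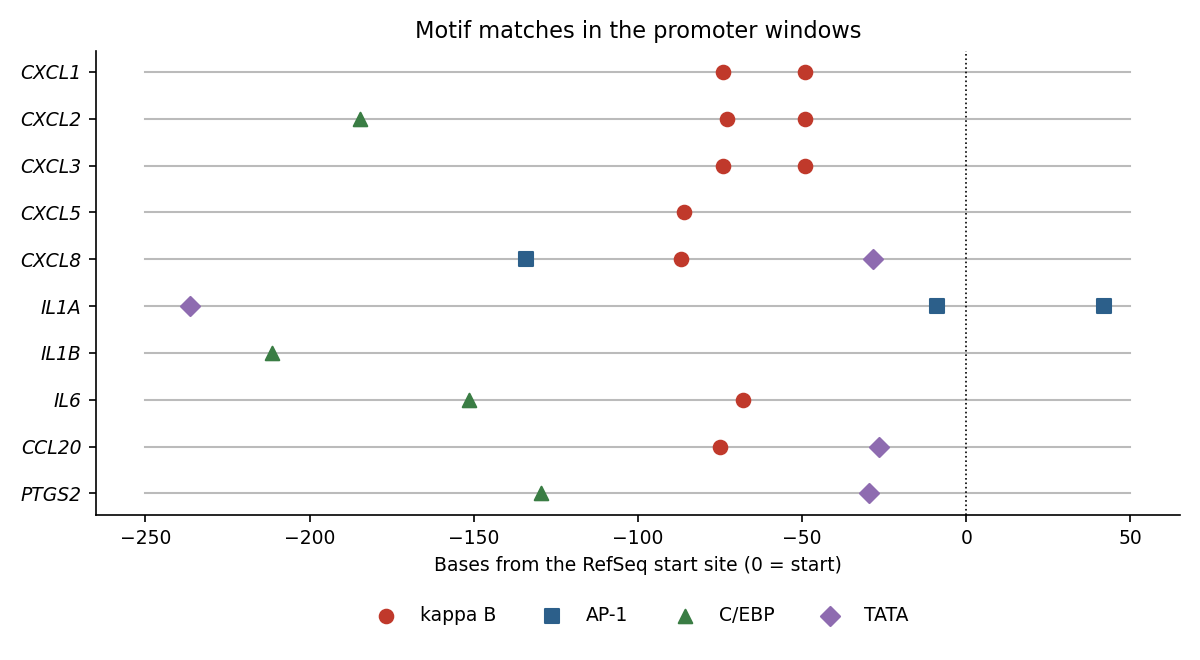
Positions of motif matches in the promoter windows of the 10 genes, in bases from the RefSeq start site (for IL1A, the window of the more upstream start). Symbols are kappa B, AP-1, C/EBP and TATA matches, and the kappa B matches of 7 genes lie close together, before the start site.

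CDH3, the silenced gene, had 78.8 TPM in HCC827 siCDH3 and 173 TPM in HCC827 siCTR, a log2 ratio of -1.12. TPM is a level scaled for transcript length and for the library total, so levels of different genes can be compared. In H1299, CDH3 was at 0.169 TPM in siCDH3 and 1.21 TPM in siCTR, below the filter of 5 TPM used here. EGFR had 504 TPM in HCC827 siCDH3 and 493 in HCC827 siCTR, against 23.9 in H1299 siCDH3 and 26.0 in H1299 siCTR, and VIM had 8.20 TPM in HCC827 siCDH3 and 9.64 in HCC827 siCTR, against 5060 in H1299 siCDH3 and 5149 in H1299 siCTR. All 10 epithelial markers checked reached 5 TPM in both HCC827 libraries, and 4 of 10 did so in both H1299 libraries. In HCC827, 3 of these 10 markers were higher in siCDH3 than in siCTR and 7 were lower, with a median log2 ratio of -0.12. The lowest ratio was -3.42, for the tight junction gene CLDN4, with 14.4 TPM in siCDH3 and 164 TPM in siCTR. It was the 1 marker past 2-fold. The highest was 0.45, for CDH1, with 439 TPM in siCDH3 and 322 TPM in siCTR. Among 15 leukocyte markers 2 reached 5 TPM in HCC827 and 1 in H1299. PTPRC, the defining leukocyte gene, was at 0 in HCC827 siCDH3 and 0.0349 TPM in HCC827 siCTR, and at 0 in both H1299 libraries. Summed TPM of the leukocyte list was 174 in HCC827 siCDH3 and 145 in HCC827 siCTR, mostly CD68. S100A8, a gene of neutrophils that epithelial cells can also express, had 26.7 TPM in siCDH3 and 17.7 TPM in siCTR. Below 5 TPM in HCC827, CSF1R and NKG7 were higher in siCDH3, and MS4A1 was at 0 in both libraries. The rest of the list was lower in siCDH3, among them CSF3R, with 0.306 TPM in siCDH3 and 0.783 TPM in siCTR. The part of other cell types in the differences below was not tested. In H1299 the sums of the leukocyte list were 124 in siCDH3 and 126 in siCTR. None of 8 endothelial markers reached 5 TPM in any library. Among 10 fibroblast markers 2 did so in HCC827 and 1 in H1299, with sums of 13.4 TPM in HCC827 siCDH3, 14.2 in HCC827 siCTR, 33.0 in H1299 siCDH3 and 31.3 in H1299 siCTR.

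Most of the genes were expressed in HCC827 and hardly at all in H1299. In the control libraries 9 of 10 were at least 2-fold higher in HCC827 than in H1299, and 0 were at least 2-fold lower. Over the 12601 genes with at least 5 TPM in either control library, 13.5% passed 2-fold upwards in HCC827 and 27.8% downwards. With the median of all genes, -0.39, set to 0, that division became 2418 higher and 2300 lower, in place of 1695 and 3500. The median log2 ratio of the 10 genes was 5.83 with a pseudocount of 1. With 4 of the 10 at 0 in H1299 siCTR this value depends on the constant added, becoming 8.18 for a pseudocount of 0.1 and 3.67 for 5. Of the 10, 9 passed the filter through HCC827 alone, so their number is not read as support. Ratios here are log2 of TPM + 1, a scale that shrinks the ratios of genes near 0. In bulk RNA, fewer expressing cells and less RNA per cell cannot be told apart. There was 1 library per group, so no difference within or between the lines has a replicate check.

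CXCL5, a neutrophil chemokine typical of epithelial cells, was the highest of the 10 in HCC827, with 1029.8 TPM in siCDH3 and 784 TPM in siCTR, and was listed at 0 in both H1299 libraries. Only 85 genes had more TPM than CXCL5 in HCC827 siCDH3 and 108 in HCC827 siCTR. IL1A, IL6 and CCL20 were also listed at 0 in both H1299 libraries. PTGS2 was at 0 in H1299 siCDH3 and at 0.103 TPM in H1299 siCTR, and IL1B was at 0.0414 TPM in siCDH3 and 0.120 TPM in siCTR. CXCL8, the best studied human neutrophil chemokine, had 0.475 TPM in siCDH3 and 0.486 TPM in siCTR there.

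CXCL2 was the exception. Its level was 103 TPM in HCC827 siCDH3, 76.8 TPM in HCC827 siCTR, 90.0 TPM in H1299 siCDH3 and 88.1 TPM in H1299 siCTR. The log2 ratio of the control libraries, HCC827 over H1299, was -0.19 as deposited. It turned to 0.20 with the median of all genes set to 0, to 0.26 with TPM taken over nuclear protein-coding genes without ribosomal proteins and to 0.13 with quantile normalization. The direction for CXCL2 therefore depends on the scaling. The share of TPM in mitochondrial protein-coding transcripts was 27.6% for HCC827 siCTR against 10.1% for H1299 siCTR. CXCL2 made up 4.05% of the summed TPM of the 10 genes in HCC827 siCDH3 and 4.48% in HCC827 siCTR, against 94.8% in H1299 siCDH3 and 95.5% in H1299 siCTR.

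**Figure D2:**
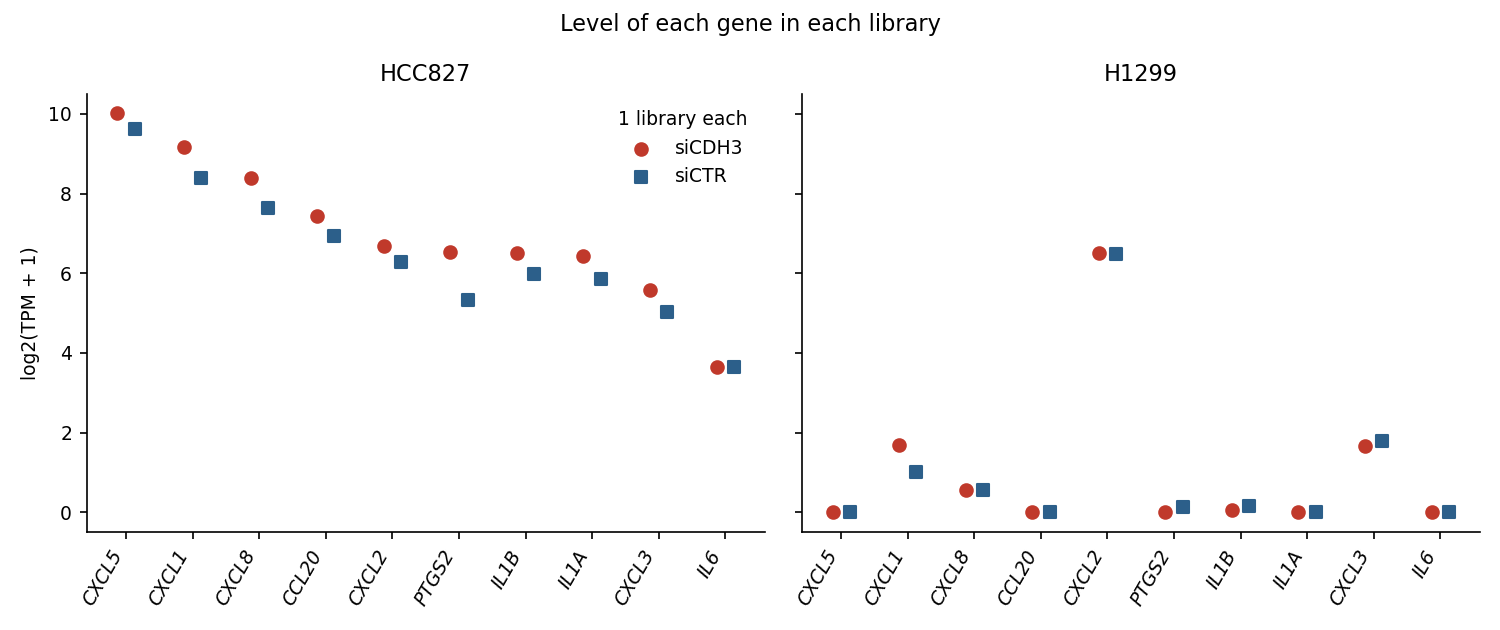
Level of each gene as log2(TPM + 1) in HCC827 (left) and H1299 (right), with siCDH3 as red circles and siCTR as blue squares, 1 library each. All 10 genes are above 0 in HCC827 and CXCL2 stands alone in H1299, at 90.0 TPM in siCDH3 and 88.1 TPM in siCTR.

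CXCL2 and its neighbours lie together. CXCL8, CXCL6, PF4V1, CXCL1, PF4, PPBP, CXCL5, CXCL3 and CXCL2 follow one another in this order among the protein-coding genes of chromosome 4 in RefSeq, and IL1A and IL1B are neighbours on chromosome 2. The platelet genes of the cluster, PF4 and PPBP, were at 0 in all 4 libraries, and PF4V1 did not exceed 0.0849 TPM. CXCL6, a further CXCR1 and CXCR2 ligand of the cluster that is not one of the 10, had 17.4 TPM in HCC827 siCDH3 and 7.91 TPM in HCC827 siCTR, and was at 0 in both H1299 libraries. In H1299 the last gene of the row was thus the one with a level above 5 TPM, beside CXCL3 with 2.17 TPM in siCDH3 and 2.44 in siCTR and CXCL1 with 2.24 TPM in siCDH3 and 1.01 TPM in siCTR.

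**Figure D3:**
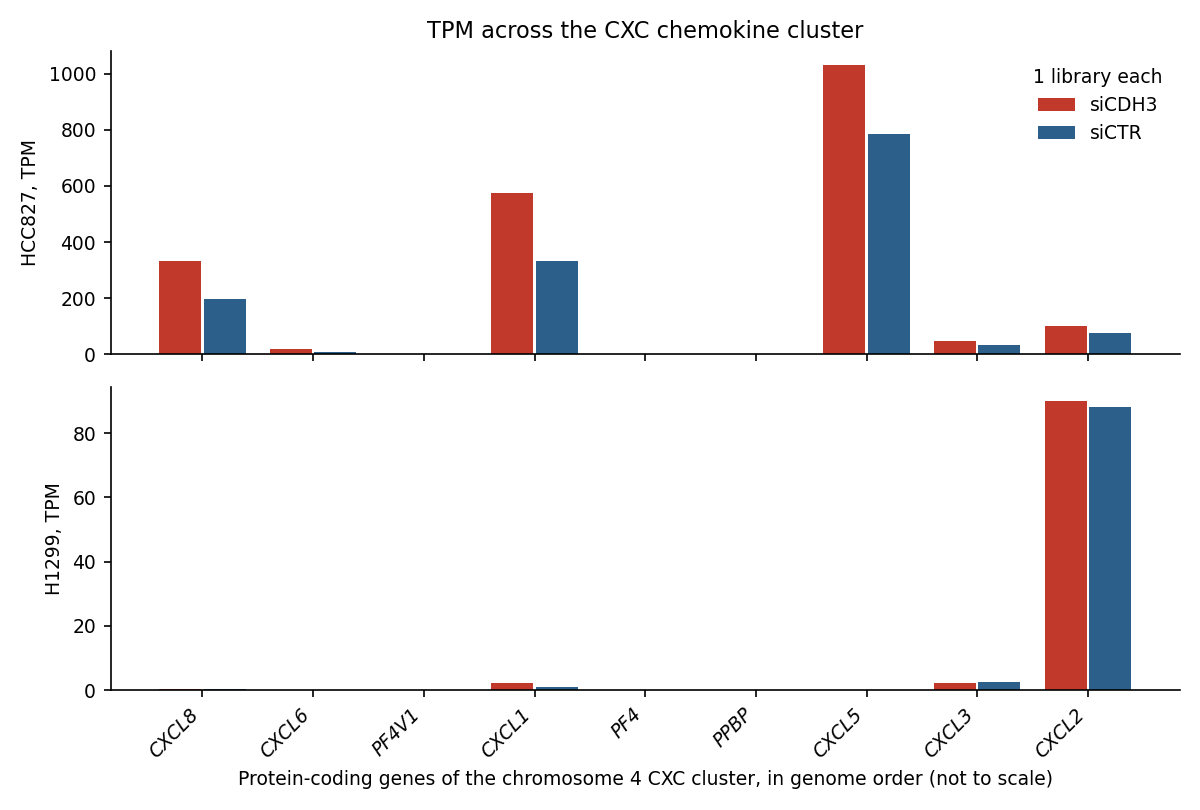
TPM of the 9 protein-coding genes of the CXC cluster in genome order, in HCC827 (top) and H1299 (bottom, another scale), with siCDH3 as red and siCTR as blue bars, 1 library each. CXCL5, CXCL1 and CXCL8 are the tall bars in HCC827, and CXCL2 is the tall bar in H1299.

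Reads of CXCL1, CXCL2 and CXCL3 can be hard to tell apart. Their coding sequences in GENCODE 29 were 93.5% identical for CXCL1 and CXCL2, 94.4% for CXCL2 and CXCL3 and 90.7% for CXCL1 and CXCL3, whereas CXCL1 and CXCL8 shared 51.6%. Their promoter windows were less alike, at 69.8%, 73.7% and 82.5% identity for the same pairs. Of all 50-base stretches of the longest coding transcript, 9.24% in CXCL2, 5.73% in CXCL1 and 5.26% in CXCL3 occurred exactly in a transcript of another gene of the trio. CXCL8, IL1A, IL1B, IL6, CCL20 and PTGS2 shared 0 such stretches with any other gene, and CXCL5 shared 1.12%, with GLYR1. The low TPM of CXCL1 and CXCL3 in H1299 is uncertain for this reason, and whether reads of CXCL2 contribute to it was not tested.

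In HCC827, 9 of the 10 genes had more TPM in siCDH3 than in siCTR, and IL6 was the exception. Summed TPM of the 10 was 2534 in siCDH3, 0.253% of the library, and 1715 in siCTR, 0.172% of the library, and thus 1.48-fold higher in siCDH3. The median log2 ratio of the 10 genes was 0.54, beside 0.03 over the 11043 genes with at least 5 TPM in either library, of which 57.1% were above 0. The rule of 2-fold was passed upwards by 1 gene, PTGS2, where 1.01% of all genes passed it, and downwards by 0, where 0.833% did. A rule of 1.5-fold was passed upwards by 3 genes, PTGS2, CXCL1 and CXCL8, against 3.35% of all genes, and downwards by 0, against 2.54%. Of the 10, 7 exceeded 0.48, the level below which 95% of all tested genes lay. The 10 genes were assembled with these results known, so their shared direction is a description.

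PTGS2, the rate-limiting enzyme of inducible prostaglandin synthesis, had 91.0 TPM in HCC827 siCDH3 and 39.1 TPM in HCC827 siCTR. This was 2.33-fold higher, a log2 ratio of 1.20, and 64 of the 11043 genes had a higher ratio. PTGS2 stood sixth among the 10 levels in siCDH3 and eighth in siCTR, while CXCL5, CXCL1, CXCL8, CCL20 and CXCL2 held the first 5 places, CXCL3 the ninth and IL6 the last in both libraries. Neighbours in this order cannot be separated, since no spread was measured.

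Of the neutrophil chemokines, CXCL1 had 573 TPM in HCC827 siCDH3 and 334 TPM in HCC827 siCTR, 1.72-fold higher. CXCL8 had 332 TPM in siCDH3 and 198 TPM in siCTR, 1.68-fold higher, with log2 ratios of 0.78 for CXCL1 and 0.74 for CXCL8. These ratios were exceeded by 204 and 218 of all genes. CXCL3 had 47.2 TPM in siCDH3 and 31.7 TPM in siCTR, a log2 ratio of 0.56. The ratios were smaller for CXCL2, at 0.41, and CXCL5, at 0.39, and 804 genes exceeded that of CXCL5. In absolute terms CXCL5 and CXCL1 differed most, by 246 and 240 TPM.

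The make-up of the chemokine group differed between the libraries. CXCL1 took 27.5% of the summed TPM of the 5 CXC genes in HCC827 siCDH3 and 23.4% in siCTR, and CXCL5 took 49.4% in siCDH3 and 55.0% in siCTR. CXCL8 took 15.9% in siCDH3 and 13.9% in siCTR. Their sum was 2085 TPM in siCDH3 and 1424 TPM in siCTR, 1.46-fold higher.

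The remaining chemokine, CCL20, which draws CCR6-bearing lymphocytes and dendritic cells, had 172 TPM in HCC827 siCDH3 and 122 TPM in HCC827 siCTR, a log2 ratio of 0.49. The interleukin-1 genes went side by side. IL1A, whose product is active as a precursor and acts as an alarm signal, had 85.3 TPM in siCDH3 and 56.7 TPM in siCTR, a log2 ratio of 0.58. IL1A lay just inside 1.5-fold by TPM, at 1.51, and just below it on the TPM + 1 scale. IL1B, whose product needs cleavage by caspase-1, had 89.3 TPM in siCDH3 and 61.9 TPM in siCTR, a log2 ratio of 0.52. The ratio of IL1B to IL1A was 1.05 in siCDH3 and 1.09 in siCTR. IL6, an inducer of the acute phase response and of STAT3 signalling, had 11.5 TPM in siCDH3 and 11.6 TPM in siCTR, a log2 ratio of -0.02. It was the lowest of the 10 in both libraries.

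**Figure D4:**
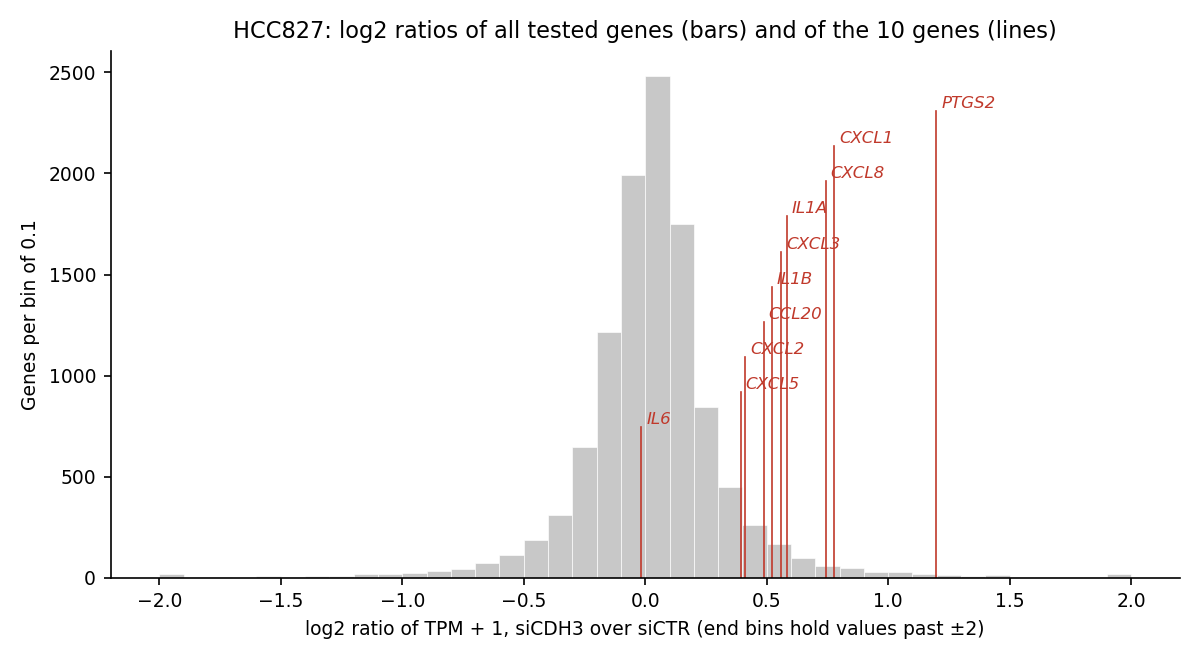
Log2 ratios of TPM + 1 in HCC827, siCDH3 over siCTR: grey bars count all 11043 tested genes in bins of 0.1, and red lines of unequal height, drawn so for legibility, mark the 10 genes. PTGS2 lies farthest right at 1.20, 8 genes lie between 0.39 and 0.78, and IL6 lies at -0.02.

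In H1299 the genes offered little to compare. Of the 10, 1 passed the filter of 5 TPM, CXCL2, with 90.0 TPM in siCDH3 and 88.1 TPM in siCTR, a log2 ratio of 0.03. The median over 11622 tested genes was -0.11, and 3626 genes had a higher ratio than CXCL2. The 2-fold rule could be applied to CXCL2 alone, which passed it in neither direction, beside 0.878% of all genes upwards and 1.58% downwards. With the median of all genes set to 0, the split of all genes was 140 higher and 134 lower, in place of 102 and 184. Summed TPM of the 10 genes was 94.9 in siCDH3 and 92.2 in siCTR. CXCL1 had 2.24 TPM in siCDH3 and 1.01 TPM in siCTR, at a level where precision is unknown. The ratios in HCC827 cannot be set against those in H1299 for the 9 genes that were below the filter there, and the difference between the lines was not tested.

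A fit across both lines with limma, with the line as a block and 12941 genes tested, called 1 gene at an adjusted p under 0.05, 0.00773% of those tested. That gene was TNFRSF6B, which encodes a decoy receptor of Fas ligand and is not one of the 10, at a log2 ratio of -6.55. Of the 10 genes 0 were called, and 1, CXCL1, had an unadjusted p under 0.05, as had 581 of all genes. The lowest Benjamini-Hochberg adjusted p of the 10 in limma was 0.933, for CXCL1, at a mean log2 ratio of 0.73 ± 0.15 (SE, moderated across genes). That of PTGS2 was 0.95, at 0.53 ± 0.34. For 9 of the 10 genes H1299 contributed values below the filter. CXCL5, IL1A, IL6 and CCL20 were at 0 there in both libraries, and CXCL1 had 2.24 TPM in siCDH3 and 1.01 TPM in siCTR. The fit could therefore not show whether these 9 genes respond across lines, and the lack of calls is not read as a result.

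The receptors of the chemokines were at or near 0. CXCR1, CCR6 and the decoy receptor gene ACKR1 were at 0 in all libraries, and CXCR2 did not exceed 0.219 TPM. The interleukin-1 receptor was present in HCC827. Its ligand-binding chain IL1R1 had 17.2 TPM in siCDH3 and 11.8 TPM in siCTR, and its co-receptor IL1RAP had 17.5 TPM in siCDH3 and 8.11 TPM in siCTR, a log2 ratio of 1.02. The IL-6 receptor gene IL6R had 12.2 TPM in siCDH3 and 12.4 TPM in siCTR and the shared signalling chain IL6ST 26.1 TPM in siCDH3 and 24.7 TPM in siCTR. The syndecan gene SDC1 had 59.3 TPM in siCDH3 and 100.3 TPM in siCTR, a ratio of -0.75. Of 15 receptor and antagonist genes 5 passed the filter in HCC827, with 1 at least 2-fold higher, 0 lower and a median of 0.08. The prostaglandin receptor gene PTGER4 had 1.61 TPM in siCDH3 and 0.678 TPM in siCTR.

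Of 18 genes around prostaglandin synthesis 13 passed the filter in HCC827, with a median log2 ratio of 0.12 and 0 past 2-fold in either direction. The largest ratios belonged to the phospholipase gene PLA2G4C at 0.68, the prostaglandin F synthase gene AKR1C3 at 0.58, PLA2G4A, which frees arachidonic acid for COX-2, at 0.49 and PTGES2 at 0.44. PTGES, the inducible prostaglandin E synthase, was high at 153 TPM in siCDH3 and 141 TPM in siCTR, and HPGD, which degrades prostaglandin E2, had 47.7 TPM in siCDH3 and 39.5 TPM in siCTR. The ratio of PTGS2, 1.20, was above those of all 13.

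Other secreted factors lay on both sides of 0. Of 21 other chemokine genes 5 passed the filter in HCC827, with CXCL6, at 1.05, past 2-fold. Their median was -0.13 as deposited, and on the same 5 genes -0.16 with the median of all genes set to 0 and -0.19 with quantile normalization. Rescaling to nuclear protein-coding genes let 7 genes past the filter, with a median of 0.22. CX3CL1 had a ratio of 0.25, and CXCL17 and CCL28 were at -0.43 and -0.16. Of 26 other cytokine genes 7 passed, 6 of them above 0, with a median of 0.17. IL23A, a subunit of interleukin-23, was the highest, with 44.5 TPM in siCDH3 and 23.9 TPM in siCTR, a ratio of 0.87. The growth factor genes CSF2 and CSF1 were at 0.31 and 0.19, and IL18 was at -0.41, with 20.5 TPM in siCDH3 and 27.6 TPM in siCTR.

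In the NF-kB pathway, 22 genes for subunits, regulators and targets were compared, of which 21 passed the filter in HCC827. Their median log2 ratio was 0.18, 15 were above 0, 0 were at least 2-fold higher and 1 was at least 2-fold lower. NFKBIZ, a nuclear IkB protein that assists NF-kB at a subset of inflammatory promoters, had 146 TPM in siCDH3 and 74.2 TPM in siCTR, a ratio of 0.96. RELA, the main activating subunit, was at 0.49 and the feedback inhibitor gene TNFAIP3 at 0.43. NKRF, which encodes a repressor of NF-kB target genes, had 3.74 TPM in siCDH3 and 26.8 TPM in siCTR, a ratio of -2.55. Whether these values bear on the 10 genes was not tested.

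Interleukin-1 signalling genes were spread around the median of all genes. Of 21 genes 15 passed the filter in HCC827, with a median of 0.02, which turned negative under each of the 3 other scalings, and 1 at least 2-fold lower. That gene was MYD88, the adaptor of the interleukin-1 and Toll-like receptors, with 11.6 TPM in siCDH3 and 24.5 TPM in siCTR, a ratio of -1.02. TAB2, at -0.74, was lower as well, while the receptor kinase gene IRAK4 and the inhibitory receptor gene SIGIRR were at 0.43 and 0.38. Of 15 IL-6 and STAT3 genes 12 passed, with a median of 0.10 and 0 past 2-fold. The kinase gene TYK2 was at -0.50, the inhibitor gene SOCS1 at 0.48, CEBPD at 0.41 and STAT3 itself at 0.26.

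**Figure D5:**
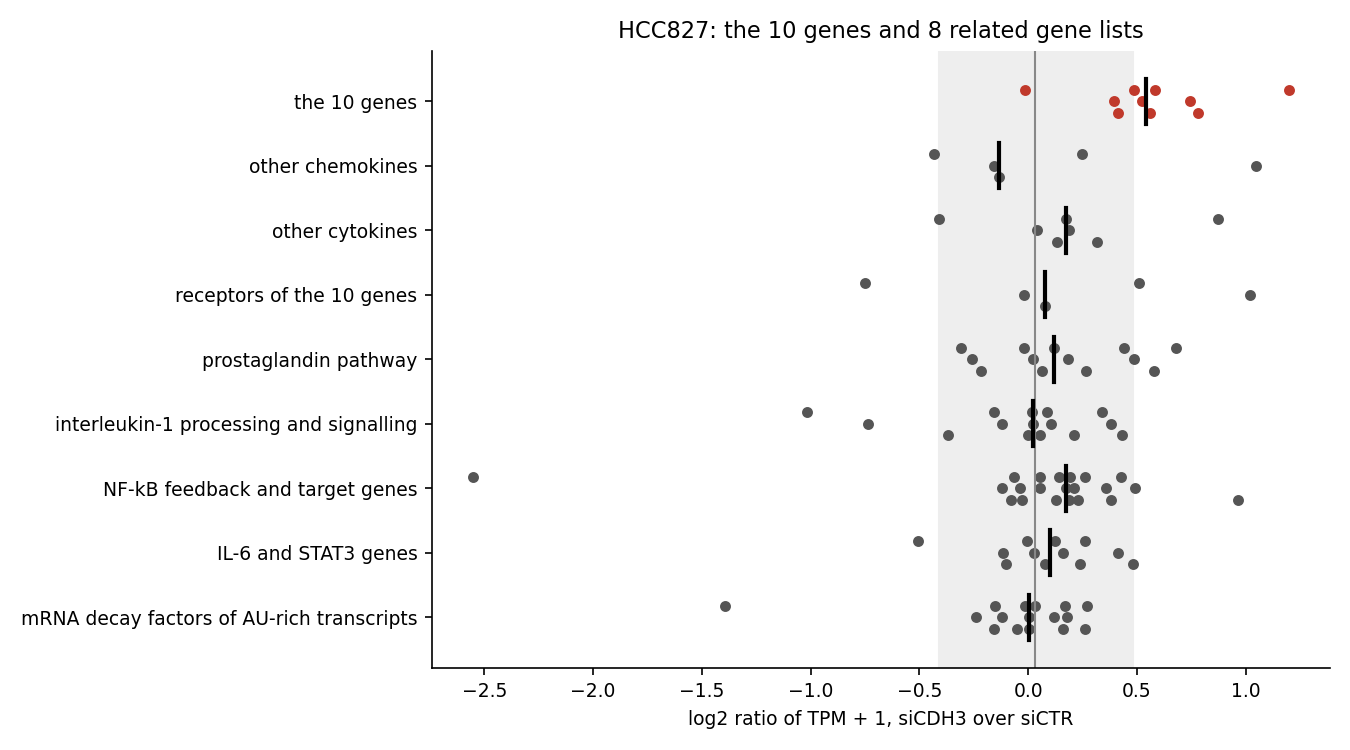
Log2 ratios of TPM + 1 in HCC827, siCDH3 over siCTR, for the 10 genes (red) and for 8 related lists (grey), 1 dot per gene past the filter. Black bars are list medians, the grey line is the median of all genes (0.03) and the shaded band holds the central 90% of all genes; the 10 genes have a median of 0.54 and the other lists lie between -0.13 and 0.18.

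The transcripts of the 10 genes share AU-rich 3' ends. In the longest coding transcript of each gene in GENCODE 29, the pentamer ATTTA occurred between 4.34 times per kilobase of 3' untranslated region, in IL1A, and 14.0 times, in IL6. The median was 7.89 for the 10 genes and 1.47 for 19066 genes, and 7 of the 10 exceeded 6.40, the level below which 95% of genes lay. PTGS2 had 22 pentamers in 2562 bases and CXCL2 had 10 in 721 bases. The longer element TTATTTATT was present in CXCL1, CXCL2, CXCL3, CXCL8, IL1B and PTGS2, 6 of 10, and in 8.13% of all genes. IL6, with the densest pentamers, had a log2 ratio of -0.02 in HCC827, and CXCL2, at 13.9 per kilobase, had 0.41. Whether pentamer density bears on the ratios was not tested.

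Of 17 genes for factors that bind or degrade such mRNAs 16 passed the filter in HCC827, with 1 at least 2-fold lower and a median log2 ratio of 0.00 that was negative under each other scaling. That was YTHDF2, a reader of methylated adenosine that promotes mRNA decay, with 12.3 TPM in siCDH3 and 33.9 TPM in siCTR, a ratio of -1.40. ZFP36, the tristetraprolin gene, had 21.1 TPM in siCDH3 and 23.6 TPM in siCTR. ZC3H12A, an endonuclease that degrades inflammatory mRNAs, had 124 TPM in siCDH3 and 103 TPM in siCTR, a ratio of 0.26, and TIAL1 and KHSRP were at 0.27 and -0.24. Their part in the differences of the 10 genes was not tested.

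In H1299 the same lists had medians below 0 for 7 of 8 lists, at a median of all genes of -0.11. Most genes lay below 0 there as deposited, since 35.2% of the 11622 tested genes were above 0. Decay factors had a median of -0.16, with 16 of 16 below 0, and IL-6 and STAT3 genes -0.22, with 12 of 14 below 0. NF-kB genes had -0.06, interleukin-1 signalling genes -0.13, prostaglandin genes -0.03, receptors -0.43 over 4 genes and other chemokines -0.67 over 2 genes. Other cytokines had a median of 0.23 over 4 genes. With the median of all genes set to 0, or with quantile normalization, the medians of the NF-kB and prostaglandin genes were above 0, and 7 of 16 decay factors were above 0 with the median set to 0. On the TPM + 1 scale none of these genes past the filter passed 2-fold in either direction. The nearest there was the carbonyl reductase gene CBR1, at -0.99, with 54.7 TPM in siCDH3 and 109 TPM in siCTR. By TPM without the added 1, CBR1 lay at 2-fold and CCL28 was past it, downwards. CCL28 had 8.89 TPM in siCDH3 and 18.2 TPM in siCTR, IL6ST had 44.1 TPM in siCDH3 and 74.7 TPM in siCTR, and PLA2G4C had 16.2 TPM in siCDH3 and 10.2 TPM in siCTR.

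Genes outside the 10 with a like pattern over the 4 libraries were found by Euclidean distance between centred log2(TPM + 1) values and the median of the 10 genes, among 11576 protein-coding genes. The nearest 5 were TCN1, which encodes a vitamin B12-binding protein, CP, the ceruloplasmin gene, TMC5, SLC16A4 and CYP24A1, at distances of 0.18 to 0.29. TCN1 had 99.5 TPM in HCC827 siCDH3, 58.9 in HCC827 siCTR, 0.177 in H1299 siCDH3 and 0.0620 in H1299 siCTR. CP had 76.5 TPM in HCC827 siCDH3 and 52.0 in HCC827 siCTR and was at 0 in both H1299 libraries. The likeness rests on 4 values a gene and mostly on the difference between the lines.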

How the data were processed

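RNA of 4 libraries was measured as TPM, deposited by the authors in 1 table whose column names match the sample labels. The genome build in the submitters' processing notes is hg19. Aligner, quantifier, annotation and strandedness: not given in the sources used here. TPM sums to nearly the same total in each library (999859 to 999943) and keeps no depth, so counting error cannot be computed, least of all for low values.

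Log2 ratios of TPM + 1 were taken between libraries for genes with at least 5 TPM in either, and a 2-fold size rule was applied, with no test. Across both lines, log2(TPM + 1) of genes with at least 5 TPM in any library was fitted in limma 3.58.1 under R 4.3.3, with the cell line as a block taken from the labels and 1 residual degree of freedom per gene. Its standard errors and p-values are moderated. The spread between the responses of 2 lines in each gene was drawn toward a value shared by all genes tested. They therefore do not measure the spread of the single gene alone.

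The 10 genes and the lists (215 entries in 15 lists, all matched) were chosen with earlier results of these data known. Named genes are the 10, CDH3, markers, up to 4 per list with the largest log2 ratio in either line, and the 5 nearest profiles. Other list genes were named after their values were seen. Promoters came from RefSeq (GRCh38.p14), transcripts from GENCODE 29, by gene name and identifier, and no coordinates were carried between builds. Alternatives were pseudocounts of 0.1 and 5, other filters, scalings and size rules, and limma fits with a trend, with no block or leaving out a library.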

Additional observations from a re-analysis of the deposited data

Results flagged for a closer look

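IL1RAP, the interleukin-1 co-receptor gene, had a log2 ratio of 1.02 in HCC827 and of -0.52 in H1299, siCDH3 over siCTR, and drew attention because the lines went opposite ways. It had 17.5 TPM in HCC827 siCDH3 and 8.11 TPM in HCC827 siCTR, and 15.8 TPM in H1299 siCDH3 and 23.1 TPM in H1299 siCTR. With 1 library per group the difference between the lines was not tested. Of the 10 genes, CXCL2 was past 5 TPM in both lines, with ratios of 0.41 in HCC827 and 0.03 in H1299.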

How the results depend on the processing

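Within HCC827, the count of 1 gene past 2-fold became 3 with a 1.5-fold rule and 0 with a 4-fold rule, and was 1 with other pseudocounts, filters and scalings. The median log2 ratio of the 10 genes there lay between 0.50 and 0.56 under those settings. Between the control libraries the median of 5.83 became 3.67 with a pseudocount of 5 and 8.18 with 0.1, and the count of 9 genes past 2-fold was 8 with a filter at TPM 20 and 9 otherwise. In H1299 the count was 0 in every setting run, over 3 of the genes with a filter at TPM 1, 10 with no filter and 1 otherwise. For siCDH3 over siCTR, the log2 ratios of the 10 genes in HCC827 and of CXCL2 in H1299 kept their sign and their side of 2-fold in 55 of 55 alternative values. Between the control libraries, CXCL2 turned from -0.19 to 0.20, 0.26 and 0.13 under the other scalings. limma called 1 gene in the fit with the cell line block, and 0 with no replicate block, with no filter and with quantile normalization. Fits leaving out any 1 library had no block, so the difference between the lines entered their spread. The lone library of a group is assumed there to vary like the others. These fits therefore cannot show how far the call depends on a library. Other pseudocounts, filters at TPM 1 and 20 and an intensity trend left 1. Of the 10 genes limma called 0 in each fit to all libraries, with a lowest adjusted p of 0.711 or more. For all but CXCL2, H1299 values below 5 TPM entered these fits, so the lack of calls is not read as a result. Depth is unknown, so the smallest difference these libraries could show at low TPM is unknown too.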

Other observations

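Of the other chemokine and cytokine genes, 35 lay below the filter of 5 TPM in HCC827, of which 14 had more TPM in siCDH3, 10 had less and 11 were at 0 in both libraries. CSF3, which encodes the granulocyte growth factor G-CSF, had 2.39 TPM in siCDH3 and 0.215 TPM in siCTR. The lymphotoxin gene LTB had 2.65 TPM in siCDH3 and 1.21 TPM in siCTR, and the monocyte chemokine gene CCL2 had 2.62 TPM in siCDH3 and 1.53 TPM in siCTR. The interleukin genes IL15, IL17C and IL11 were lower in siCDH3. IL15 had 3.27 TPM in siCDH3 and 4.12 TPM in siCTR, IL17C had 2.54 TPM in siCDH3 and 3.10 TPM in siCTR, and IL11 had 1.60 TPM in siCDH3 and 2.20 TPM in siCTR. In H1299, CCL2 had 0.0937 TPM in siCDH3 and 1.86 TPM in siCTR. These genes were picked after their values were seen, and precision at such levels is unknown.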
